A study of Homo sapiens with 8 samples.

Results

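The genes examined here are 9 genes around the BET bromodomain proteins and the elongation kinase P-TEFb, namely BRD2, BRD3, HEXIM1, HEXIM2, CDK9, CCNT1, CCNT2, LARP7 and SERPINI1. They were taken by gene symbol from a table of 63129 rows, in which 15 rows carry these symbols. The 6 surplus rows are copies of BRD2 on alternate haplotypes of the MHC region and are listed at 0 in all 8 libraries, so 1 row per gene was used. All 9 genes passed the minimum mean of 1 RPKM (reads per kilobase, made comparable between libraries by the number of mapped reads), as did 14732 genes in all.

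RNA sequencing was examined in LP-1, a human multiple myeloma cell line, after 6 hr with compound or with the DMSO vehicle. SGC-CBP30 inhibits the bromodomains of the acetyltransferases CBP and EP300 and was used at 2.5 μM, and CPI203, used at 250 nM, blocks those of BET proteins. Each compound has 2 libraries, which the study calls biological replicates, and 2 DMSO libraries from the same naming series, so the 8 libraries form 4 groups of 2. The doses of the compounds differ, and a single cell line was used, so each response below is that of LP-1 at 1 dose and 1 time.

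BET proteins bind acetylated histones through paired bromodomains and help to bring P-TEFb to promoters. P-TEFb is the kinase CDK9 with a cyclin T, and it phosphorylates RNA polymerase II and the pausing factors so that the polymerase can move into the gene body. Much of the P-TEFb in a cell is held inactive by HEXIM1 or HEXIM2 on the 7SK small nuclear RNA, which LARP7 binds and protects, and HEXIM1 mRNA is used as a marker of exposure to BET inhibitors.

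Promoter sequence is shown for HEXIM1 and HEXIM2, which are neighbours on 1 chromosome and responded in opposite directions to CPI203, and for SERPINI1, which had the largest response of the 9 genes to either compound. Each line holds the 250 bases before an annotated start site in RefSeq (GRCh38.p14), written 5′ to 3′ on the strand of the gene, all 3 on the plus strand. Capitals mark matches on either strand to the TATA box TATAAA, the E-box CACGTG, the CRE TGACGTCA, the GC box GGGCGG or the CCAAT box CCAAT, and no 2 matches overlap in these windows.

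HEXIM1 (chr17:45148225-45148474): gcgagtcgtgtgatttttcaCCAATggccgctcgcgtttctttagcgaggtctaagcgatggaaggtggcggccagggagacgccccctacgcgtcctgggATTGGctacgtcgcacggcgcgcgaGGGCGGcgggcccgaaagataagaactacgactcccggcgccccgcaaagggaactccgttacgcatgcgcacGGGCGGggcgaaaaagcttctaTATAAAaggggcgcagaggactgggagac
HEXIM2 (chr17:45161625-45161874): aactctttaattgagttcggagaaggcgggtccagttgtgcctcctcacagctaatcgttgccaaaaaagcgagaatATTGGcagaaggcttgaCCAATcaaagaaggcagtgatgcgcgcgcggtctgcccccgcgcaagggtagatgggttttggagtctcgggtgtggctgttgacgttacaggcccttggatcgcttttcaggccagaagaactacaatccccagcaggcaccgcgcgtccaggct
SERPINI1 (chr3:167735471-167735720): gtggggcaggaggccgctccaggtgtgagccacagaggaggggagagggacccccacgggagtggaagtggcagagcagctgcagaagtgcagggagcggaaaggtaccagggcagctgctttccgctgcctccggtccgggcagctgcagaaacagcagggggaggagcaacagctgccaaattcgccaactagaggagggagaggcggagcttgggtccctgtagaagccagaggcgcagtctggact

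The HEXIM1 window holds a TATA box that begins 29 bases before the start site, GC boxes at 124 and 51 bases and CCAAT boxes at 230 and 149 bases before it. The HEXIM2 window holds CCAAT boxes at 173 and 156 bases before its start, its other annotated window holds none of the 5 motifs, and the SERPINI1 window holds none of them. Of the 35116 windows of this length in the RefSeq table, 10.7% hold a TATA box, 6.34% an E-box, 1.65% a CRE, 42.6% a GC box and 32.0% a CCAAT box on either strand. HEXIM1 was the single gene of the 9 with a TATA box match in any of its windows, over 15 windows in all. A match is a description of the letters and does not show that a factor binds there.

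Every library carried plasma cell transcripts, with 7 markers between 10.9 and 531 RPKM, while 8 markers of other cell types reached at most 0.498 RPKM. The depth, estimated from the steps of low values, was 26100000 to 50200000 reads per library. For the 9 genes this came to between an estimated 148 reads on HEXIM2 and 68546 reads on BRD2, with a counting error of 8.22% and 0.61% in the lowest library of each. In a design of 2 against 2 libraries, the smallest two-sided p of an exact permutation test is 0.333, so the p-values below come from a limma fit over all genes tested, with Benjamini-Hochberg adjustment. A gene is said to have changed at an adjusted p under 0.05, and fold changes are on the log2(RPKM + 0.1) scale, which understates those of low genes.

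With CPI203, 8 of the 9 genes changed and all but HEXIM2 of these were higher than in DMSO. Of all genes tested, 64.2% changed with CPI203, 31.1% higher and 33.1% lower. Of the 9 genes, 5 also passed a 1.5-fold limit (BRD2, BRD3, HEXIM1 and SERPINI1 higher, HEXIM2 lower), where 27.8% of all genes did, 13.4% higher and 14.4% lower. The median log2 fold change of the 9 genes was 0.57, against -0.01 over all genes tested. The 9 genes include HEXIM1 and SERPINI1, marker genes of BET inhibition, and were chosen with earlier results of these data known. These shares and the median are therefore partly set by the choice of genes.

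With SGC-CBP30, 5 of the 9 genes changed, BRD2, LARP7 and SERPINI1 higher and CDK9 and HEXIM1 lower, where 40.4% of all genes tested changed, 25.6% higher and 14.8% lower. The share among the 9 genes is thus near that of all genes. SERPINI1 alone passed the 1.5-fold limit, 1 of 9 where 7.26% of all genes did (3.47% higher and 3.79% lower), and the median log2 fold change was 0.19, against 0.07 over all genes.

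**Figure D1:**
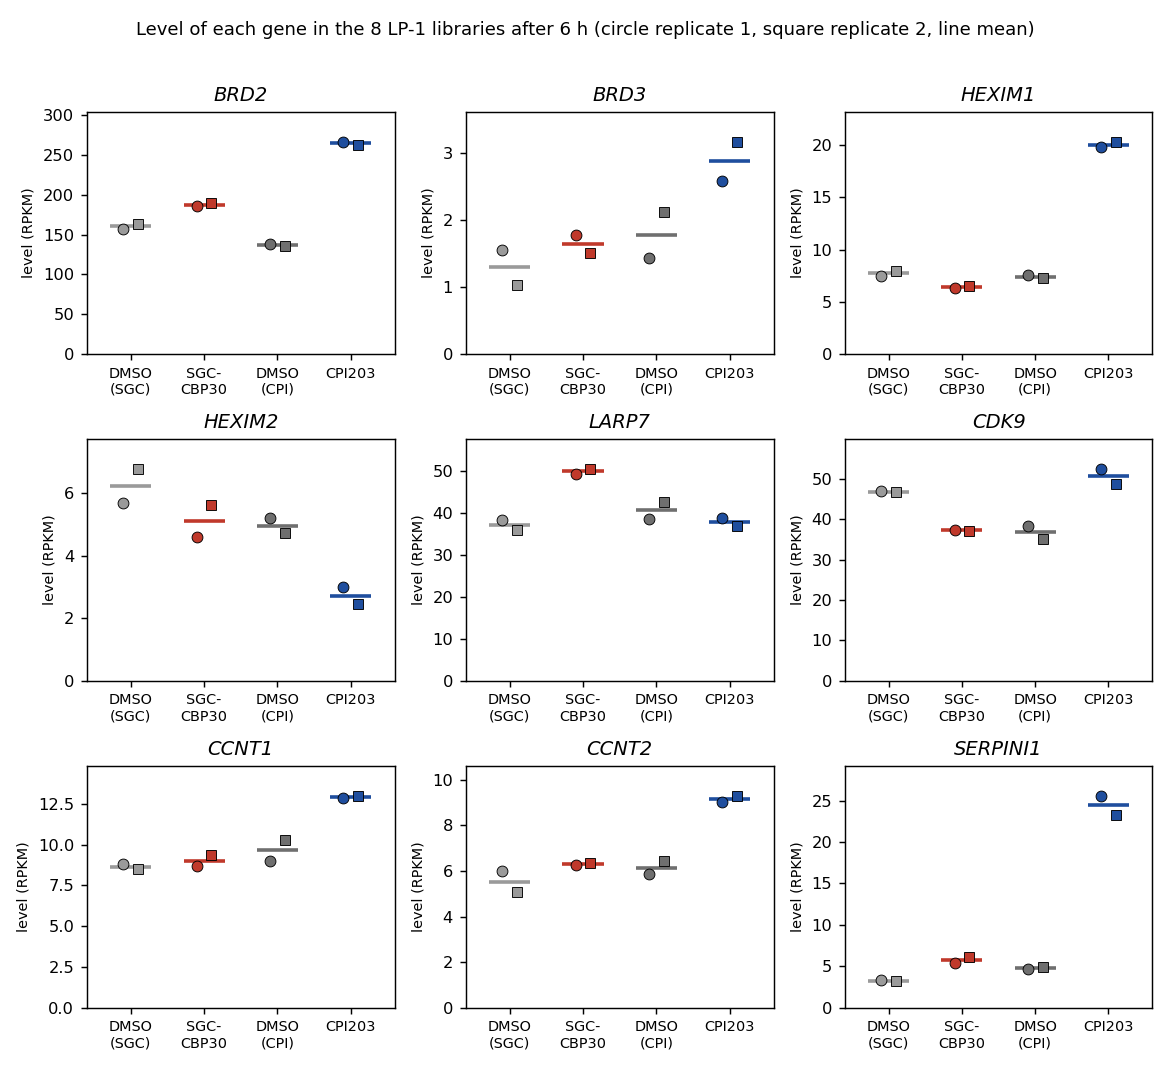
Level of each of the 9 genes in RPKM (vertical axis, from 0) in the 8 libraries, grouped along the horizontal axis by treatment and by the series of the DMSO libraries, with each library as a point and the mean as a line. With CPI203, HEXIM1 (20.1 RPKM) and SERPINI1 (24.4 RPKM) stood far above their DMSO means of 7.40 and 4.75 RPKM, while HEXIM2 was at 2.72 RPKM against 4.97.

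BRD2 (chr6:32936436-32949282 in hg19, the build of the deposited positions) encodes a BET protein and was abundant in these cells, with a mean level over 8 libraries above that of 97.4% of the genes tested. It was at 157 and 164 RPKM in DMSO and 186 and 189 RPKM with SGC-CBP30, and in the CPI203 series at 138 and 136 RPKM in DMSO and 266 and 263 RPKM with CPI203. Treated libraries were above their own controls in both series, and the rise with CPI203 was the larger. The log2 fold change was 0.95 ± 0.03 (SE) with CPI203 (1.93-fold, limma adjusted p = 1.80e-08) and 0.23 ± 0.03 with SGC-CBP30 (1.17-fold, limma adjusted p = 0.000621). The response to SGC-CBP30 minus that to CPI203 was -0.72 on the log2 scale, with a 95% interval of -0.82 to -0.62.

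BRD3 (chr9:136895426-136933657) lay at the other end of the range, with a level above that of only 10.6% of genes tested. It was at 1.55 and 1.03 RPKM in DMSO and 1.78 and 1.51 RPKM with SGC-CBP30, and at 1.44 and 2.12 RPKM in DMSO and 2.58 and 3.16 RPKM with CPI203. The SGC-CBP30 libraries overlapped their controls and the CPI203 libraries did not. On the log2 scale the change was 0.68 ± 0.24 with CPI203 (1.60-fold, limma adjusted p = 0.0294) and 0.35 with a 95% interval of -0.19 to 0.88 with SGC-CBP30 (limma adjusted p = 0.275). The CPI203 call rested on single libraries, since the log2 fold change was 0.41 (limma adjusted p = 0.203) without the first DMSO library and 0.54 (limma adjusted p = 0.151) without the second CPI203 library. It also missed the threshold with no filter on low values (limma adjusted p = 0.137) and without the intensity trend (limma adjusted p = 0.0516).

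HEXIM1 (chr17:43224683-43229468), which binds 7SK RNA and inhibits P-TEFb, separated the compounds by direction. It was at 7.51 and 7.95 RPKM in DMSO and 6.31 and 6.53 RPKM with SGC-CBP30, and at 7.54 and 7.27 RPKM in DMSO and 19.8 and 20.3 RPKM with CPI203. The 4 DMSO libraries lay within a narrow band, both CPI203 libraries were far above it and both SGC-CBP30 libraries were below it. The log2 fold change was 1.43 ± 0.07 with CPI203 (2.69-fold, limma adjusted p = 1.30e-07), and the increase ranked 260 among the 14732 genes. With SGC-CBP30 it was -0.26 ± 0.07 (1.20-fold lower, limma adjusted p = 0.0126). That decrease missed the threshold when the second DMSO library of its series was left out (-0.22, limma adjusted p = 0.0785), when the first SGC-CBP30 library was left out (-0.24, limma adjusted p = 0.0742) and against all 4 DMSO libraries (-0.23, limma adjusted p = 0.0549). The difference between the responses was -1.69 (95% interval -1.91 to -1.47, limma adjusted p = 1.36e-06), the largest of the 9 genes.

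HEXIM2 (chr17:43238066-43247407), the paralog that can take the place of HEXIM1 on 7SK RNA, starts 8598 bases beyond the end of HEXIM1 on the same strand. It was at 5.68 and 6.78 RPKM in DMSO and 4.60 and 5.63 RPKM with SGC-CBP30, and at 5.21 and 4.72 RPKM in DMSO and 3.003 and 2.44 RPKM with CPI203. Both CPI203 libraries lay below their controls, and the values with SGC-CBP30 lay just below theirs. The log2 fold change was -0.85 ± 0.14 with CPI203 (1.80-fold lower, limma adjusted p = 0.000503) and -0.28 with a 95% interval of -0.60 to 0.04 with SGC-CBP30 (limma adjusted p = 0.144). The difference between the responses was 0.57 (limma adjusted p = 0.0406) and missed the threshold when a single library was left out, namely the first DMSO library of the SGC-CBP30 series (limma adjusted p = 0.137), the second SGC-CBP30 library (0.147), the first DMSO library of the CPI203 series (0.111) or the second CPI203 library (0.126). It was also lost with a pseudocount of 1, with no filter, with either other scaling and without the intensity trend, so that the call held in 6 of 15 alternatives.

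As RPKM is per length, the paralogs can be set side by side within a library. HEXIM1 was 56.9% and 54.0% of the sum of both in the DMSO libraries and 57.8% and 53.7% with SGC-CBP30, and 59.1% and 60.6% in the DMSO libraries and 86.8% and 89.3% with CPI203. The composition with SGC-CBP30 was close to that of its controls, and that with CPI203 was shifted towards HEXIM1 in both libraries. The summed level was 10.9 and 12.2 RPKM with SGC-CBP30, under its DMSO values of 13.2 and 14.7 RPKM, and 22.8 RPKM in both CPI203 libraries, over 12.7 RPKM in the higher of their DMSO libraries. The fall of HEXIM2 thus took away a small part of the increase of HEXIM1 in the summed transcript.

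**Figure D2:**
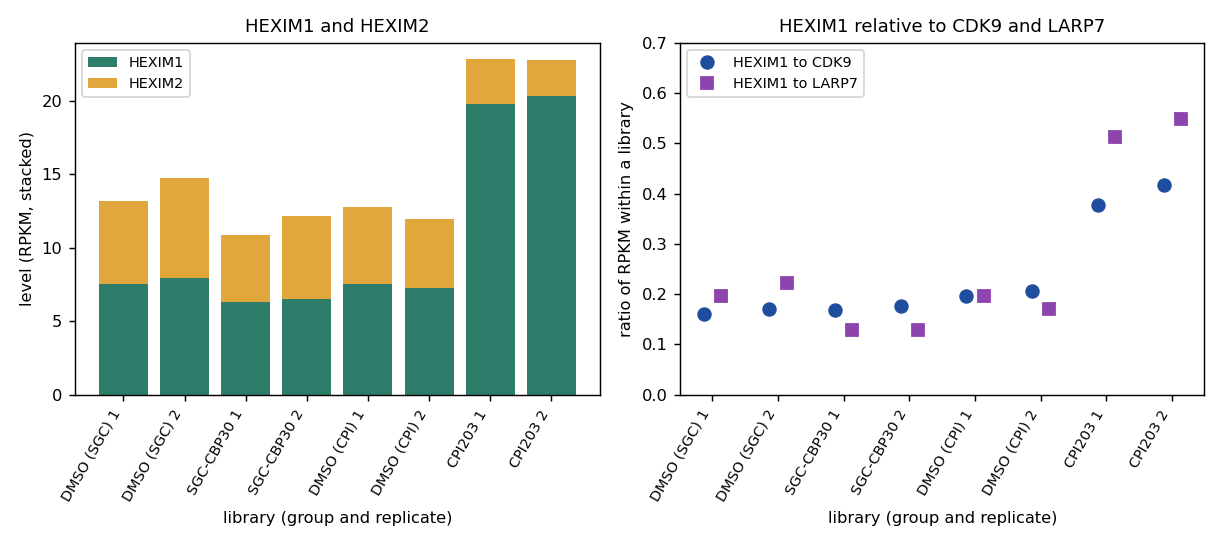
Left, stacked RPKM of HEXIM1 and HEXIM2 in each library. Right, ratio of HEXIM1 RPKM to that of CDK9 (circles) and LARP7 (squares) within each library. The sum is 22.8 RPKM in both CPI203 libraries and 14.7 RPKM at most in the others, and both ratios are highest with CPI203.

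LARP7 (chr4:113558119-113578748), which binds the end of 7SK RNA and stabilizes it, responded to SGC-CBP30 rather than to CPI203. It was at 38.3 and 35.9 RPKM in DMSO and 49.4 and 50.5 RPKM with SGC-CBP30, and at 38.5 and 42.7 RPKM in DMSO and 38.8 and 37.0 RPKM with CPI203. Both SGC-CBP30 libraries exceeded every other library, and the CPI203 libraries overlapped their controls. LARP7 rose by 0.43 ± 0.06 (SE, log2 scale) with SGC-CBP30 (1.35-fold, limma adjusted p = 0.000496) and -0.10 with a 95% interval of -0.23 to 0.03 with CPI203 (limma adjusted p = 0.167). The difference was 0.53 (95% interval 0.34 to 0.71, limma adjusted p = 0.000545). Without the first DMSO library of the CPI203 series, the CPI203 value was -0.17 and passed the threshold (limma adjusted p = 0.0332). The call of this difference held in 16 of 16 alternatives.

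CDK9 (chr9:130547957-130553066), the kinase subunit of P-TEFb, also moved in opposite directions. It was at 46.9 and 46.8 RPKM in DMSO and 37.3 and 37.2 RPKM with SGC-CBP30, and at 38.4 and 35.2 RPKM in DMSO and 52.5 and 48.7 RPKM with CPI203. Treated and control libraries were apart in both series. CDK9 was at -0.33 ± 0.05 (log2 fold change and SE) with SGC-CBP30 (1.26-fold lower, limma adjusted p = 0.00128) and 0.46 ± 0.05 with CPI203 (1.37-fold, limma adjusted p = 4.22e-05), a difference of -0.79 (95% interval -0.96 to -0.62, limma adjusted p = 2.55e-05). The DMSO pairs themselves differed, by -0.35 (CPI203 series minus SGC-CBP30 series, limma adjusted p = 0.000834), which is as large as the response to SGC-CBP30. Against all 4 DMSO libraries, CDK9 was at -0.16 with SGC-CBP30 (limma adjusted p = 0.40) and at 0.28 with CPI203 (limma adjusted p = 0.0792). Both signs were kept there and both calls were lost. The SGC-CBP30 libraries stood at the level of the DMSO libraries of the CPI203 series, whereas the CPI203 libraries exceeded all 4 DMSO libraries.

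CCNT1 (chr12:49082246-49110681) and CCNT2 (chr2:135675804-135716912) encode the cyclins T that activate CDK9. CCNT1 was at 8.81 and 8.51 RPKM in DMSO and 8.67 and 9.35 RPKM with SGC-CBP30, and at 9.001 and 10.3 RPKM in DMSO and 12.9 and 13 RPKM with CPI203. CCNT2 was at 6.01 and 5.06 RPKM in DMSO and 6.25 and 6.35 RPKM with SGC-CBP30, and at 5.85 and 6.43 RPKM in DMSO and 9.005 and 9.29 RPKM with CPI203. Both cyclins were above all other libraries with CPI203. Their responses to CPI203 on the log2 scale were 0.42 ± 0.08 for CCNT1 (1.34-fold, limma adjusted p = 0.0011) and 0.57 ± 0.10 for CCNT2 (1.48-fold, limma adjusted p = 0.000564). With SGC-CBP30 the values were 0.06 (95% interval -0.12 to 0.24) and 0.19 (95% interval -0.03 to 0.41), neither past the threshold, and that of CCNT1 turned to -0.020 with median scaling. Without the first DMSO library of the SGC-CBP30 series, CCNT2 reached 0.31 (limma adjusted p = 0.0494).

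The responses of the cyclins differed by -0.37 for CCNT1 (limma adjusted p = 0.0228) and -0.38 for CCNT2 (limma adjusted p = 0.0429), and neither call was stable. That of CCNT1 was lost without the first DMSO library of the SGC-CBP30 series (limma adjusted p = 0.0658), the first SGC-CBP30 library (0.0857), the first DMSO library of the CPI203 series (0.0692) or the second CPI203 library (0.0573). That of CCNT2 was lost when any library but the second DMSO library of either series was left out, with limma adjusted p between 0.0725 and 0.143. Both cyclin differences also missed the threshold with no filter on low values, and that of CCNT2 with the replicate block and without the intensity trend. Within libraries the ratio of CCNT1 to CCNT2 was 1.46 and 1.68 in DMSO and 1.39 and 1.47 with SGC-CBP30, and 1.54 and 1.60 in DMSO and 1.43 and 1.4 with CPI203, and both CPI203 libraries lay below their controls.

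The ratio of CDK9 to the sum of both cyclins was 3.17 and 3.45 in DMSO and 2.50 and 2.37 with SGC-CBP30, and 2.59 and 2.10 in DMSO and 2.40 and 2.19 with CPI203. With CPI203 the kinase and its cyclins thus stood in a ratio within the range of their controls, although all 3 were higher. The ratio of HEXIM1 to CDK9, by contrast, was 0.196 and 0.207 in DMSO and 0.378 and 0.417 with CPI203. With SGC-CBP30 that ratio was 0.169 and 0.176, against 0.160 and 0.170 in DMSO, and the ratio of HEXIM1 to LARP7 was 0.128 and 0.129, against 0.196 and 0.222. These ratios are of mRNA levels and were described without a test.

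SERPINI1 (chr3:167453030-167543356) encodes neuroserpin, a secreted inhibitor of tissue plasminogen activator, and its mRNA has been read together with HEXIM1 as a marker of BET inhibitors. It was at 3.34 and 3.19 RPKM in DMSO and 5.41 and 6.10 RPKM with SGC-CBP30, and at 4.63 and 4.87 RPKM in DMSO and 25.6 and 23.3 RPKM with CPI203. Treated libraries were above their controls in both series. SERPINI1 rose by 2.34 ± 0.09 (SE, log2 scale) with CPI203 (5.06-fold, limma adjusted p = 3.75e-08), ranked 63 among the increases of all genes tested, and 0.80 ± 0.09 with SGC-CBP30 (1.74-fold, limma adjusted p = 0.00017), ranked 229. The difference was -1.54 (95% interval -1.83 to -1.26, limma adjusted p = 9.93e-06). The DMSO pairs differed by 0.53 (limma adjusted p = 0.00146), and against all 4 DMSO libraries the SGC-CBP30 value was 0.53 (limma adjusted p = 0.087). HEXIM1 and SERPINI1, the 2 marker genes of BET inhibition, thus both rose with CPI203. With SGC-CBP30, SERPINI1 rose and HEXIM1 fell against the DMSO libraries of their own series. Against all 4 DMSO libraries both genes kept their signs and missed the threshold (HEXIM1 at -0.23, limma adjusted p = 0.0549).

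**Figure D3:**
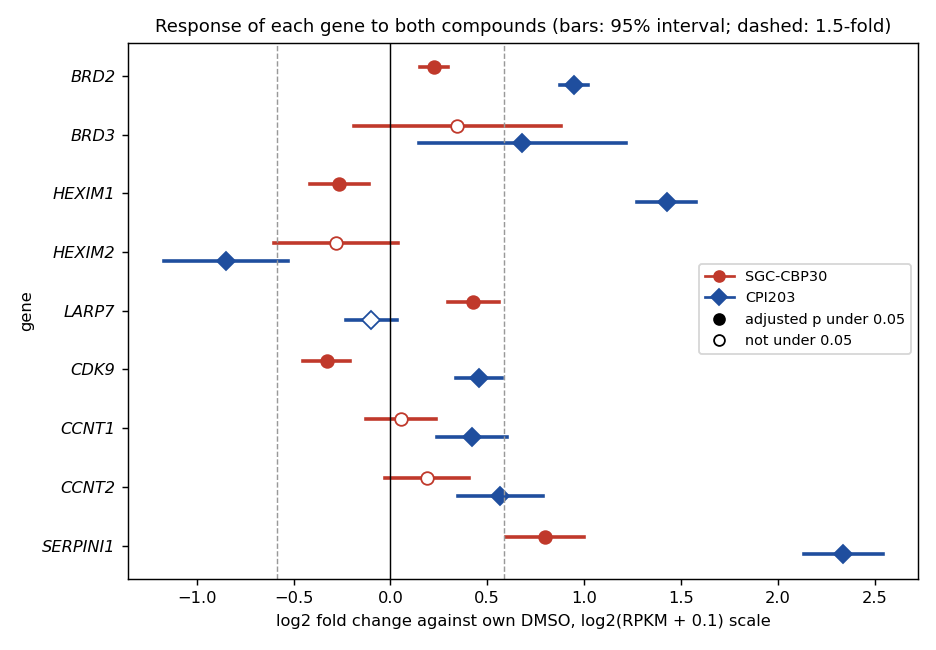
Log2 fold change of each of the 9 genes against the DMSO libraries of its own series (horizontal axis), with circles for SGC-CBP30, diamonds for CPI203, bars for the 95% interval and filled symbols for an adjusted p under 0.05. HEXIM1 (-0.26 and 1.43) and CDK9 (-0.33 and 0.46) lie on opposite sides of 0 for SGC-CBP30 and CPI203, and SERPINI1 (0.80 and 2.34) is the farthest to the right for both.

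The difference between the responses passed the threshold for 8 of the 9 genes, all but BRD3, where 50.3% of all genes tested did. On the log2 scale, the response to SGC-CBP30 was higher than that to CPI203 for 2 of the 9 genes (29.3% of all genes). It was lower for 6 (21.0% of all genes), whatever the sign of the responses themselves. The count fell from 8 to 5 without the first DMSO library of the SGC-CBP30 series, the first DMSO library of the CPI203 series or the second CPI203 library, a share close to that of all genes. With a 1.5-fold limit the difference passed for BRD2, CDK9, HEXIM1 and SERPINI1, 4 of 9 where 24.5% of all genes did. In all 4 the response to SGC-CBP30 was the lower (9.68% of all genes), although BRD2 and SERPINI1 rose with both compounds. For BRD3 the difference was -0.34 with a 95% interval of -1.09 to 0.42, which leaves room for a sizeable difference in either direction. The compounds were used at different doses, so these are differences between the treatments as given. Libraries did not overlap for 7 of the 9 genes with SGC-CBP30, where this held for 73.1% of all genes tested, and for 8 of 9 with CPI203, where it held for 80.8%.

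In the absence of compound, 3 of the 9 genes differed between the DMSO pairs, where 41.7% of all genes tested did (20.3% higher and 21.5% lower in the CPI203 series). BRD2 and CDK9 were lower in the DMSO libraries of the CPI203 series, by -0.23 and -0.35 on the log2 scale, and SERPINI1 was higher by 0.53. HEXIM1 was at nearly the same level in both (95% interval of the difference -0.21 to 0.09). None of the 9 genes differed by 1.5-fold, where 7.84% of all genes did (3.93% higher and 3.91% lower). The series and whatever else set the experiments apart cannot be told apart. BRD2, CDK9 and SERPINI1 all moved in CPI203-treated cells against the DMSO of the same series, to levels beyond those of both DMSO pairs.

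Several of the genes that overlap the 9 genes or are the nearest tested on either side had responses to CPI203 of the other sign. The nearest tested gene can be far away, as with SLC2A6, 551167 bases from BRD3. HEXIM1 lies between ACBD4, 3135 bases away and at a log2 fold change of -0.29 with CPI203 (limma adjusted p = 0.0432), and HEXIM2. Its increase thus stood between decreases on either side, where 33.1% of all genes tested fell with CPI203. The DMSO libraries of ACBD4 were far apart, at 12.96 and 9.9 RPKM, against 9.22 and 9.21 RPKM with CPI203. SERPINI1 lies 303 bases from PDCD10, a regulator of vascular junctions and of GCKIII kinases, which is transcribed in the opposite direction. PDCD10 was at 54.9 and 54.5 RPKM in DMSO and 67.7 and 71.0 RPKM with SGC-CBP30, and at 63.1 and 67.5 RPKM in DMSO and 88.6 and 86.7 RPKM with CPI203. This gene rose with both compounds, by 0.34 with SGC-CBP30 (limma adjusted p = 0.000353) and 0.42 with CPI203 (limma adjusted p = 1.79e-05), where SERPINI1 was at 0.80 and 2.34. The PDCD10 transcript was also much the more abundant of the pair.

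BRD2 lies among the HLA class II genes and overlaps HLA-DMA, on the opposite strand, which encodes part of the peptide loading chaperone. With SGC-CBP30, HLA-DMA was at -0.69, HLA-DMB at -1.003 and HLA-DOA at -1.55 on the log2 scale, all past the 1.5-fold limit, while BRD2 rose. The DMSO pairs differed by more than this (-0.98, -1.11 and -2.04, CPI203 series minus SGC-CBP30 series), and the SGC-CBP30 means of 53.1, 19.9 and 3.55 RPKM lay above the other DMSO pair, whose means were 43.6, 18.5 and 2.51 RPKM. With CPI203, HLA-DMA was at -0.09 and missed the threshold (limma adjusted p = 0.191), while HLA-DMB was lower at -0.35 (limma adjusted p = 0.000139) and HLA-DOA at -0.60, past 1.5-fold (limma adjusted p = 0.000629). SH2D3C, next to CDK9, was lower with both compounds (-1.145 with SGC-CBP30 and -1.149 with CPI203 on the log2 scale). Its DMSO pairs differed too, by -0.81 (CPI203 series minus SGC-CBP30 series, limma adjusted p = 0.000224). The SGC-CBP30 mean was 8.09 RPKM, against DMSO means of 18.0 RPKM in its own series and 10.2 RPKM in the other. MGAT5, a glycosyltransferase gene, is the nearest tested gene on 1 side of CCNT2, at 463612 bases, and fell with SGC-CBP30 (-0.92). Tested genes that overlap BRD3 (LINC00094) and LARP7 (C4orf21) are annotated on the opposite strand. LINC00094 was at 0.71 with SGC-CBP30 and at -0.36 with CPI203, where it missed the threshold (limma adjusted p = 0.0576). C4orf21 was at 0.36 and 0.22. Whether strand was used in counting is not stated in the sources used here, so reads in the shared stretches of BRD2, BRD3 and LARP7 cannot be told from those of the partner.

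**Figure D4:**
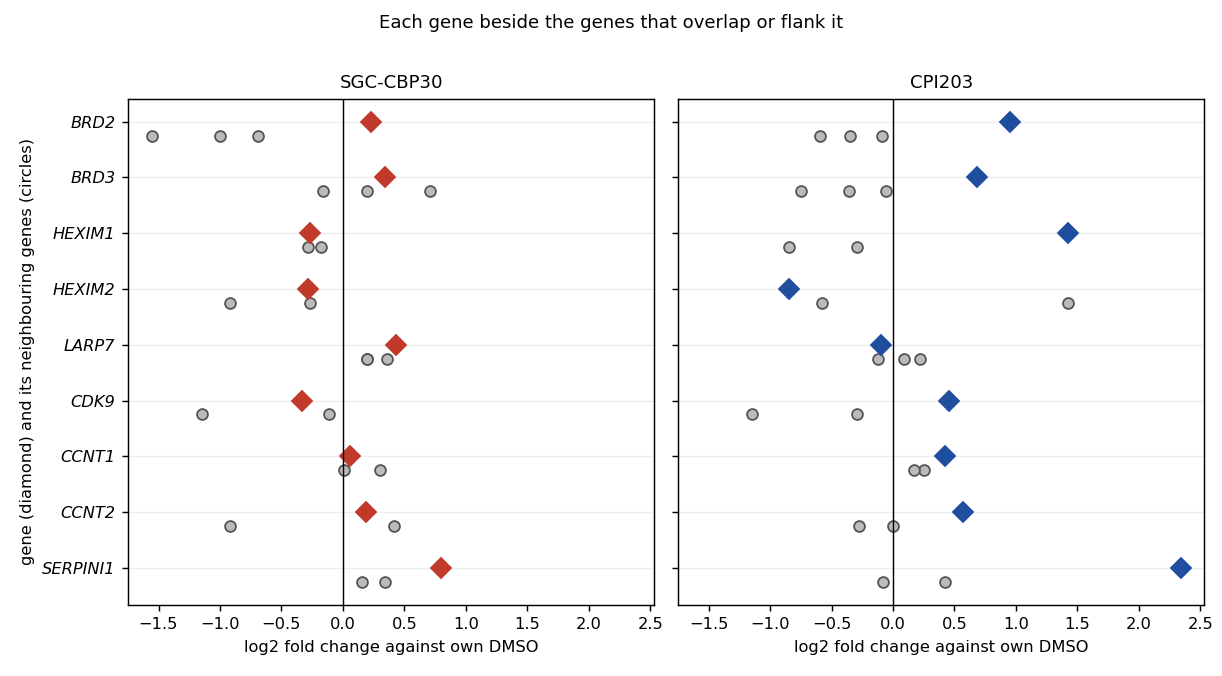
Log2 fold change against own DMSO (horizontal axis) of each of the 9 genes (diamonds) and, just below it, of the tested genes that overlap or flank it (circles), for SGC-CBP30 on the left and CPI203 on the right. With CPI203, HEXIM1 at 1.43 has its neighbours at -0.85 and -0.29. SERPINI1 at 2.34 has PDCD10 at 0.42 and GOLIM4, 183108 bases away, at -0.08 (limma adjusted p = 0.145).

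Other genes of the 7SK particle and of P-TEFb release were spread to both sides of 0. Of 7 such genes, 2 rose and 4 fell with CPI203, and 1 rose and 3 fell with SGC-CBP30, with median log2 fold changes of -0.18 and -0.06. Among all genes tested, 31.1% rose and 33.1% fell with CPI203, and 25.6% rose and 14.8% fell with SGC-CBP30. MEPCE, the enzyme that caps 7SK RNA, was at 27.5 and 27.8 RPKM in DMSO and 36.1 and 34.3 RPKM with SGC-CBP30, and at 25.2 and 22.9 RPKM in DMSO and 43.0 and 44.3 RPKM with CPI203. It rose with both, 1.81-fold with CPI203 (limma adjusted p = 7.93e-07) and 1.27-fold with SGC-CBP30 (limma adjusted p = 0.00123). JMJD6, which takes part in the release of P-TEFb from 7SK, fell 2.27-fold with CPI203 (limma adjusted p = 7.80e-08), from 26.8 and 26.5 RPKM to 11.6 and 11.7 RPKM. DDX21, an RNA helicase that also releases P-TEFb, fell 2.16-fold with CPI203 (limma adjusted p = 2.09e-08). RN7SK, the RNA itself, was between 8.54 and 48.7 RPKM, and its replicates differed so much that the 95% interval with CPI203 was -1.77 to 1.41.

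In the super elongation complex, which carries P-TEFb to elongating polymerase, 8 of 10 genes were tested. Of these, 2 were higher and 3 lower with CPI203, and 2 higher and 4 lower with SGC-CBP30. For this list and the pausing factors below, the shares of all genes were 31.1% and 33.1% with CPI203. With SGC-CBP30 they were 25.6% and 14.8%. AFF4, its scaffold, rose 1.80-fold with CPI203, and EAF2 and MLLT1 fell, 2.34-fold and 1.81-fold. EAF2 was at 31.6 and 33.2 RPKM in DMSO and 13.8 and 13.7 RPKM with CPI203, but at 15.2 and 16.4 RPKM in the other DMSO pair, a 2.04-fold difference between the pairs (limma adjusted p = 1.65e-06). AFF1, the related scaffold, fell 1.60-fold with SGC-CBP30 (limma adjusted p = 0.000165) and had a 95% interval of -0.12 to 0.22 on the log2 scale with CPI203. Of the 6 pausing factors (NELF and DSIF subunits), which P-TEFb phosphorylates, 2 rose and 4 fell with CPI203, none past 1.5-fold. With SGC-CBP30 their limma log2 fold changes were between -0.08 and 0.11, and 0 of the 6 passed the threshold (0 at an unadjusted p under 0.05).

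Of 10 other elongation factors, 5 rose and 3 fell with CPI203 and 5 rose with SGC-CBP30. Of all genes tested, 31.1% rose and 33.1% fell with CPI203, and 25.6% rose with SGC-CBP30. CTR9 and RTF1, subunits of the PAF1 complex, had the largest increases with CPI203 (1.86-fold and 1.83-fold) and also rose with SGC-CBP30 (1.20-fold and 1.28-fold). Among the 9 genes of the other transcription kinases and their partners, 7 rose with each compound and none fell, where 31.1% of all genes tested rose with CPI203 and 25.6% with SGC-CBP30. The median log2 fold change was 0.32 with CPI203 and 0.21 with SGC-CBP30, against -0.01 and 0.07 over all genes tested. CDK19, a kinase of the Mediator complex, rose 2.14-fold with CPI203 (limma adjusted p = 0.000337) and was at 0.98-fold with SGC-CBP30. It was at 3.41 and 4.08 RPKM in DMSO and 6.90 and 9.46 RPKM with CPI203. The other DMSO pair was higher, at 5.11 and 5.66 RPKM (limma adjusted p = 0.0378 between the pairs). CDK13, which also acts on elongating polymerase, rose 1.64-fold with CPI203 and 1.19-fold with SGC-CBP30.

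Of 37 tested genes for other bromodomain proteins, 13 rose and 11 fell with CPI203, and 12 rose and 4 fell with SGC-CBP30, with medians of 0.10 and 0.12. These counts are near the shares of all genes, 31.1% higher and 33.1% lower with CPI203, and 25.6% higher and 14.8% lower with SGC-CBP30. The largest decrease with CPI203 was that of ZMYND8, a chromatin reader, which was at 3.42 and 3.62 RPKM in DMSO and at 0.961 and 0.905 RPKM with CPI203 (3.51-fold lower, limma adjusted p = 6.54e-07). SP110 and KAT2A fell 1.88-fold and 1.73-fold, while TRIM66, BRD8 and ATAD2 rose 2.26-fold, 2.02-fold and 1.90-fold. With SGC-CBP30, SMARCA2, an ATPase of the SWI/SNF remodelling complex, fell 1.53-fold (limma adjusted p = 1.22e-05) and was the single gene of this list past 1.5-fold. Of 6 proteins known to bind BET proteins, 1 rose and 2 fell with CPI203 and 1 rose and 1 fell with SGC-CBP30, none by 1.5-fold.

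**Figure D5:**
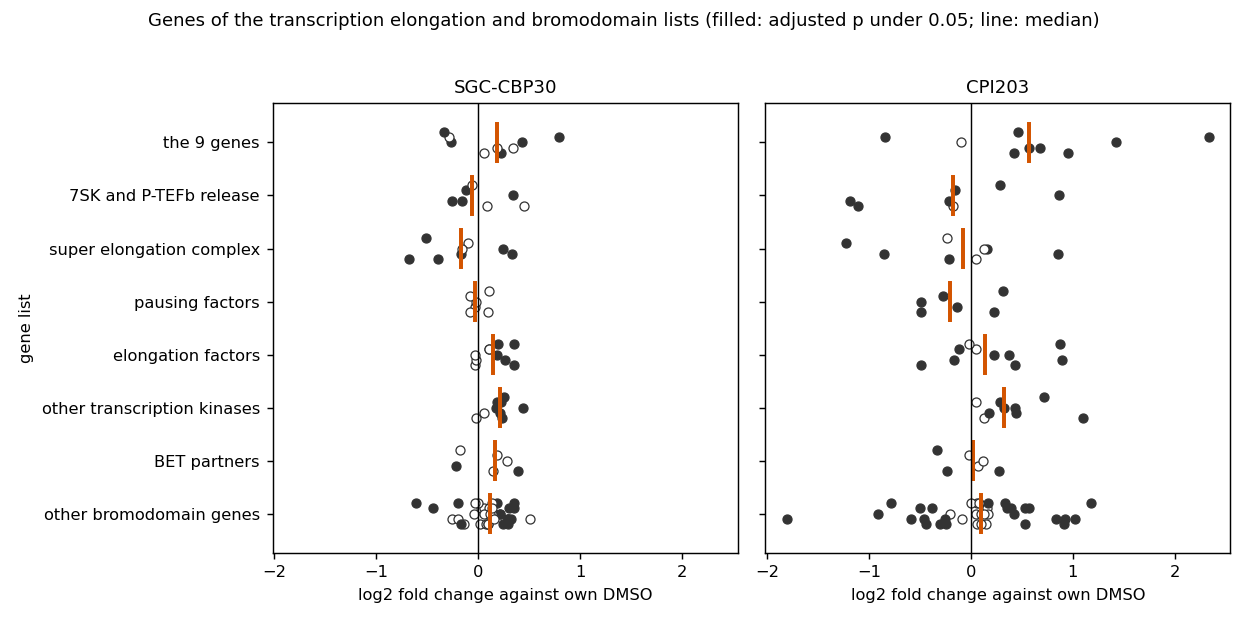
Log2 fold change against own DMSO (horizontal axis) of the 9 genes and of 7 lists of related genes (rows), for SGC-CBP30 on the left and CPI203 on the right, with filled points for an adjusted p under 0.05 and a vertical line at the median. With CPI203, the 9 genes have a median of 0.57, against 0.32 for the other transcription kinases and values between -0.21 and 0.14 for the other lists. The 9 genes include marker genes of BET inhibition, so their median is partly set by their choice.

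Finally, the genes whose 8 values ran most like those of HEXIM1, SERPINI1 and BRD2 were sought among the 10544 genes with a mean level of 5 RPKM or more, after the DMSO mean of the same series was subtracted. Since 4 of the 8 values then lie near 0 and all genes share the libraries, high correlations are easily reached and are given as a description. SRGAP2 was most like HEXIM1 (Pearson r = 0.9997 over 8 libraries), at -0.21 with SGC-CBP30 and 1.09 with CPI203 on the log2 scale. It was followed by BTG1, an antiproliferative gene, at -0.28 and 1.48, SPTAN1, PGD and IDI1. All 5 genes had a negative value with SGC-CBP30 and a positive one with CPI203, a pattern largely set by their selection for likeness to HEXIM1. The SGC-CBP30 value of PGD was -0.07 and missed the threshold (limma adjusted p = 0.0858). All 5 genes lie on chromosomes other than that of HEXIM1.

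SDCBP, HIST1H2AC, AMACR, RTN3 and HIST1H2BC were most like SERPINI1, all higher with both compounds, again a pattern largely set by the selection. HIST1H2BC, a histone H2B gene, was at 1.18 with SGC-CBP30 and 3.48 with CPI203, and HIST1H2AC, a histone H2A gene, at 0.92 and 2.82. CHMP1B, TWSG1, HIST1H3G, RSPRY1 and ZXDC were most like BRD2, with log2 fold changes from 0.15 to 0.61 with SGC-CBP30 and from 0.64 to 2.64 with CPI203.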

How the data were processed

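The RPKM values deposited by the authors were made by a service provider from column-purified, DNase-treated RNA. The submitters' processing notes name TopHat 1.4.1, Cufflinks and hg19, and the annotation release and the use of strand are not given in the sources used here. The 24 columns of other libraries were not used. After 27 genes with missing values were left out, 33312 had a value above 0, and the 14732 that averaged 1 RPKM or more entered the tests.

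The scale was log2(RPKM + 0.1). limma 3.58.1 in R 4.3.3 (eBayes with intensity trend) was fitted to 4 group means over 8 libraries, leaving 4 residual degrees of freedom beside 5.5 prior ones, tested on simulated data, and adjusted by Benjamini-Hochberg over all genes tested. DMSO libraries were assigned by naming series. No count test was run, since 54.8% to 69.0% of low values of single-exon genes were whole reads (within 0.05), and the depth is an estimate. Replicates had an SD of 0.091 to 0.115 in log2 difference, and at most 0.024% of genes had identical values. The members, lists and tests were chosen with earlier results of these data known. Genes named beside the members are the 3 largest called increases and decreases per list and compound, the neighbours in the deposited annotation, and the 5 best correlated genes. The alternatives were a pseudocount of 1, a minimum of 5 RPKM or none, 2 other scalings, replicate blocks, no trend, separate fits, all 4 DMSO libraries as controls, and fits without single libraries. Tables and figures were made with pandas 2.3.3, matplotlib 3.10.9 and numpy 2.4.6 under Python 3.11.15. Exon lengths came from GENCODE. Some genes of the lists are not reported here by name.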

Additional observations from a re-analysis of the deposited data

How the results depend on the processing

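Of the 160 values of single genes under the alternatives for SGC-CBP30, 151 kept their direction and side of the threshold. So did 154 of 160 for CPI203, 119 of 142 for the difference between the responses and 131 of 133 for the DMSO pairs. Counts of genes are not among these values. Filters, replicate blocks, no trend and separate fits left each log2 fold change as it was in the main fit. The same held for a compound when a library of the other series was left out. In those settings the direction could not change, only the side of the threshold. With all 4 DMSO libraries as controls, 2 genes changed with SGC-CBP30 and 0 passed 1.5-fold. Of all 14732 genes tested, limma found 2119 changed and 516 past 1.5-fold. With a minimum of 5 RPKM, which removes BRD3 and HEXIM2, 3 genes passed 1.5-fold with CPI203, as did 2590 of all 10544 genes tested. With no filter the responses differed for 5 genes, and for 6819 of all 33312 genes. Without 1 library, the responses differed for 5 to 8 genes and the DMSO pairs for 3 to 5. The lone library left in a group was then assumed to vary like the others. CCNT1 with SGC-CBP30 was at -0.020 with median scaling, -0.031 with quantile normalization and -0.019 against all 4 DMSO libraries, and the cause was not tested. Median scaling made 32.5% and quantile normalization 32.4% of all SGC-CBP30 calls at 1.5-fold higher, against 47.8% as deposited, and for the difference these shares were 51.8% and 50.2%, against 60.5%.

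The replicate number as a block left 5 genes changed with SGC-CBP30, 8 with CPI203 and 7 for the difference, where CCNT2 was lost (limma adjusted p = 0.0592). Of all 14732 genes tested, 5029, 9075 and 6729 changed in that fit. The study set treated samples against paired DMSO controls, whereas the main fit here compared group means without pairs. Same-numbered libraries did not deviate together over all genes tested (r = -0.096 in the SGC-CBP30 series and 0.009 in the CPI203 series). At 10 RPKM or more, r was -0.172 and -0.039. These correlations cannot show that the libraries were unpaired. A crossed pairing of the SGC-CBP30 series, added after seeing the data, gave 5, 8 and 8 genes, against 5749, 9402 and 7248 of all genes. For the DMSO pairs, the replicate number as a block across the series, also added after seeing the data, left 3 genes changed. In that fit 5775 of all genes changed. Depth limits BRD3, HEXIM2 and SERPINI1 most, with 6.17% to 8.22% counting error in the lowest library.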
